A study of Mus musculus with 6 samples.

Results

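Chemokines are small secreted proteins that direct the migration of cells, and chemokine receptors are the G protein-coupled receptors that read them. The genes described here were all those in the count table named as a chemokine ligand of the CC, CXC, CX3C or XC family, as a receptor of these families or as an atypical chemokine receptor. This gave 62 genes of 27179, namely 39 ligands and 23 receptors, the receptor-like gene Ccr1l1 included. Of these, 55 had a count in at least 1 library and 39 (28 ligands and 11 receptors) had enough counts to be tested. A gene that is high in 1 population only can pass this filter through that population, so counts over the 39 tested genes are given as a description.

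RNA was sequenced in bulk from cancer-associated fibroblasts (CAFs) of 3 mammary tumors of female raGFP-Wnt1 mice. These mice carry the MMTV-Wnt1 transgene, in which a mammary tumor virus promoter drives Wnt1, on an FVB/NJ background, and the Pdgfra H2B-GFP reporter from C57BL/6 mice, in which cells with an active Pdgfra gene have green nuclei. GFP+ cells of each tumor were sorted into CD34- and CD34+ CAFs, which gave 3 libraries per population. Whether the tumors came from separate mice is not stated, so p-values speak for these 3 tumors only. In a fit that ignores the tumor they measure the spread between libraries of a population. In a fit that takes the tumor into account they measure how the CD34- to CD34+ difference varies between tumors. Ages are not in the labels, and the reporter limits both populations to cells with an active Pdgfra gene. The comparison asks how the 2 CAF populations of the same tumor differ.

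Most chemokines recruit leukocytes during inflammation or place them in tissues at rest, and fibroblasts are a known source of both kinds. Receptors that signal are mainly carried by leukocytes. Atypical receptors bind chemokines without classical G protein signalling and remove or redistribute them.

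Library totals ranged from 16238059 to 86609267 counts, and the genes tabulated here took 0.299% to 0.726% of a library. The CD34- library of tumor 3 stood apart in having counts in 14314 genes, against 16253 to 19220 in the others. Levels are CPM, the usual count relative to the library total, scaled by the composition factor. Cd34, the marker used for sorting, was at 41.9 to 102 CPM in CD34- and 562 to 1604 CPM in CD34+ CAFs, and the reporter gene Pdgfra was at 302 to 468 and 336 to 505 CPM. Summed fibroblast markers reached 40900 to 59410 CPM in CD34- and 40940 to 43650 CPM in CD34+ CAFs. Summed pan-leukocyte markers reached 5.68 CPM at most and neutrophil markers 0.990 CPM at most, while macrophage and monocyte markers summed to 12.2 to 17.9 CPM in CD34- and 8.29 to 17.01 CPM in CD34+ CAFs and T and NK cell markers to 0.463 to 2.10 and 1.79 to 6.55 CPM. Most of the T and NK cell sum in CD34+ CAFs was Cd3e, at 1.24 to 5.89 CPM, against 0.0356 to 1.77 CPM in CD34- CAFs. Cd3d and Cd3g did not exceed 0.0936 CPM in any library. Ptprc, which encodes CD45, was at or below 0.481 CPM.

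Promoter sequence was read where RefSeq (GRCm38.p6) gave a window of 250 bases before to 50 bases after a gene's start, which was so for 47 of the 62 genes. The 9 letters GGAATTTCC, a form of the kB element that NF-kB factors bind, were searched on both strands. They were found in 104 of 32851 promoters (0.317%). Among the 47 genes, which had 54 promoters, Cxcl1, Cxcl2, Cxcl3, Cxcl10 and Ccr3 had them. The 4 ligands are shown because all 4 were lower in CD34- CAFs in the fit that takes the tumor into account, described below. No other gene that was lower in that fit and had a window, had a match. The motif was chosen with these values known. Each window below has 60 bases of the gene's own strand, 5′ to 3′, and the capitals mark the motif, which reads as its reverse complement in Cxcl10.

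Cxcl1, chr5:90891149-90891208, plus strand, motif 70 bases before the start: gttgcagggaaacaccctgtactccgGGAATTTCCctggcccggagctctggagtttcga
Cxcl2, chr5:90903777-90903836, plus strand, motif 96 bases before the start: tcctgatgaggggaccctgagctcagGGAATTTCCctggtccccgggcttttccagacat
Cxcl3, chr5:90786003-90786062, plus strand, motif 72 bases before the start: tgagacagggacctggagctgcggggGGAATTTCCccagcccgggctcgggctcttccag
Cxcl10, chr5:92349014-92349073, minus strand, motif 158 bases before the start: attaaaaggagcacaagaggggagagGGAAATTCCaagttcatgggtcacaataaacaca

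The windows of Cxcl1, Cxcl2 and Cxcl3 come from 1 gene cluster. A match is a description of these letters and not of factor binding, and Ccr3, which also had a match, had 3 counts over all libraries.

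Most tested chemokine genes had a fold change below 0, that is, toward lower levels in CD34- than in CD34+ CAFs, and 1 gene passed a test that ignores the tumor. The median log2 fold change (CD34- over CD34+) of the 39 tested genes was -0.87, against -0.03 over all 14855 tested genes, and it was -0.49 when no filter on low counts was used. Within tumors 1, 2 and 3 the median of the log2 ratio was -0.85, -0.68 and -1.45. The fold change was below 0 for 31 genes and above 0 for 8. The sign was the same in all 3 tumors for 26 of the 39 genes (21 lower and 5 higher), while 46.3% of all tested genes kept 1 sign.

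In limma-voom without a term for the tumor, 1 of the 39 genes, the atypical receptor Ackr3, had an adjusted p under 0.05, and 12 had an unadjusted p under 0.05. The share passing over all genes was 0.121%, and 2128 of all 14855 genes had an unadjusted p under 0.05. Because both populations came from the same 3 tumors, the fit was repeated with the tumor as a block. Then 16 of the 39 genes (41.0%) passed, against 8.57% of all genes. Of these, 14 were lower in CD34- CAFs, against 4.25% of all genes in that direction, and 2 were higher, against 4.32%. The 14 were Cxcl1, Cxcl2, Cxcl3, Cxcl5, Cxcl10, Cxcl12, Cxcl13, Ccl2, Ccl7, Ccl11, Ccl19, Ackr1, Ackr2 and Ackr3, and the 2 were Cxcl14 and Cx3cl1. Group ranges did not overlap for 12 genes. The CD34- range lay below the CD34+ range for 10 genes, against 10.0% of all genes, and above it for 2, against 10.4%. In bulk RNA, fewer cells with a transcript and less transcript per cell cannot be told apart.

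**Figure D1:**
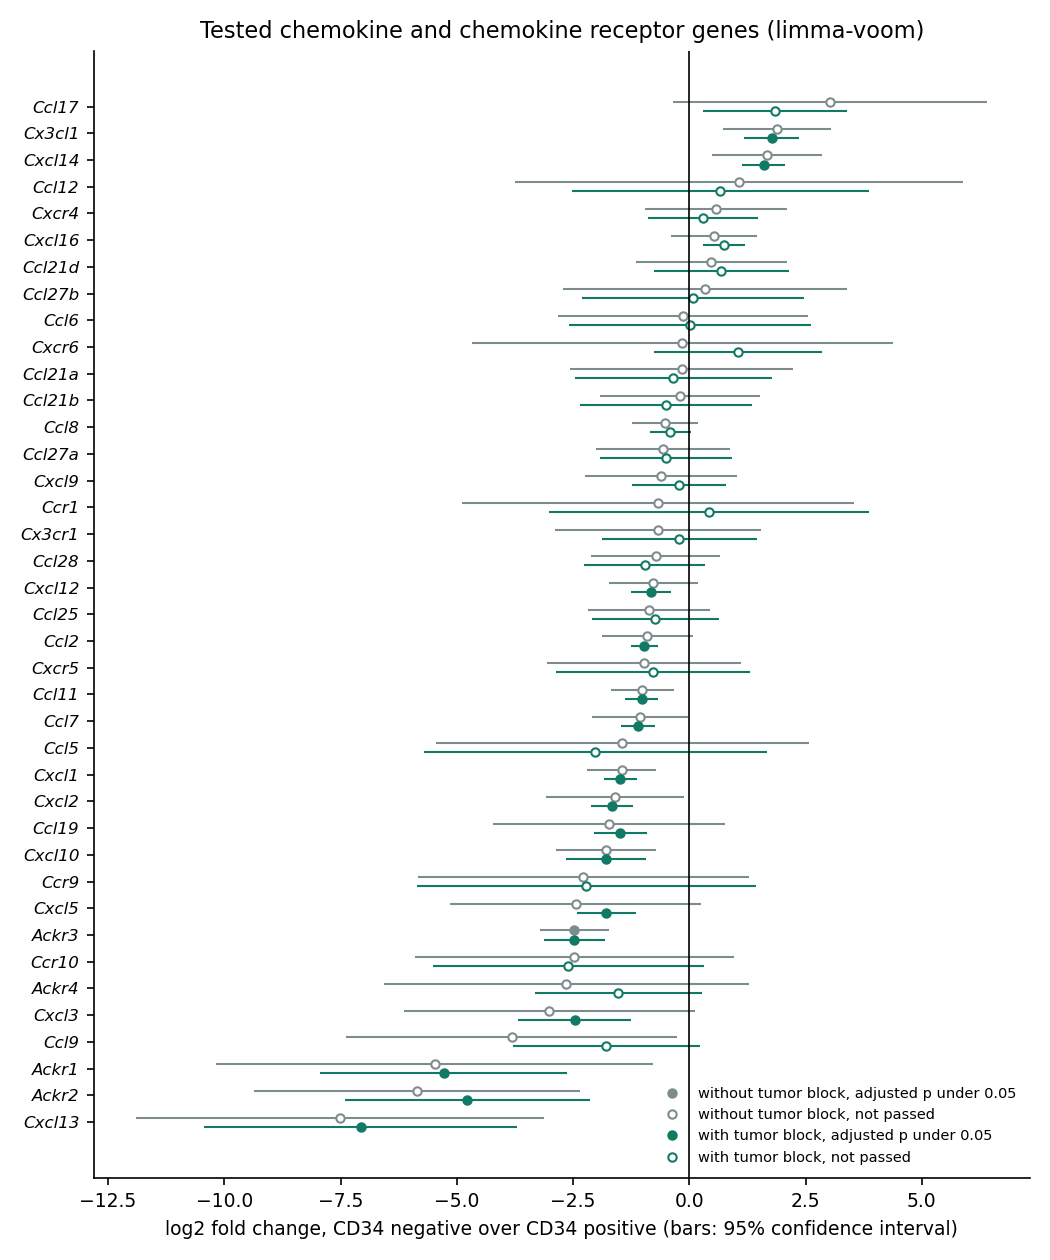
Log2 fold changes (x axis, CD34- over CD34+ CAFs) of the 39 tested chemokine and receptor genes (y axis), from limma-voom without (grey) and with (green) the tumor as a block. Bars are 95% confidence intervals and filled points have an adjusted p under 0.05, which are 1 grey and 16 green points, 14 of the green ones left of 0.

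The leading ligand differed between the populations. Per kilobase of gene length, which allows genes to be compared, Cxcl14 was the most abundant ligand in CD34- CAFs, at 1339 ± 671 CPM per kilobase (SD, n = 3). Cxcl1 came next in these cells at 640 ± 242, followed by Ccl2 at 339.5 ± 184.5 and Ccl7 at 223 ± 152 CPM per kilobase. The SDs of neighbours in this order overlapped. In CD34+ CAFs Cxcl1 led at 1754 ± 551 CPM per kilobase, followed by Ccl2 at 655 ± 313, Cxcl14 at 488 ± 356 and Ccl7 at 440.4 ± 178.7. There the lead of Cxcl1 exceeded the SDs, whereas Ccl2, Cxcl14 and Ccl7 did not differ beyond theirs.

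As a share of the summed ligand CPM per kilobase, Cxcl14 took 38.5%, 45.7% and 48.9% in CD34- CAFs of tumors 1, 2 and 3. In CD34+ CAFs it took 11.96%, 15.1% and 6.17%. Cxcl1 moved the opposite way, with 28.4%, 19.6% and 18.5% in CD34- and 46.5%, 40.3% and 42.3% in CD34+ CAFs. Neither pair of ranges overlapped. The ratio of Cxcl14 to Cxcl1 per kilobase was 1.35, 2.33 and 2.64 in CD34- CAFs and 0.257, 0.375 and 0.146 in CD34+ CAFs. Shares of Ccl2 and Ccl7 were also higher in every CD34+ library than in any CD34- library (Ccl2 15.4% ± 2.09 against 11.1% ± 1.13, SD, n = 3, and Ccl7 10.2% to 10.8% against 6.16% to 8.70%). The summed ligand level itself overlapped, at 2115 to 4584 CPM per kilobase in CD34- and 2890 to 5909 in CD34+ CAFs, and in both populations the CAFs of tumor 2 had the most. Shares are relative, so a higher share of 1 ligand lowers the others.

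**Figure D2:**
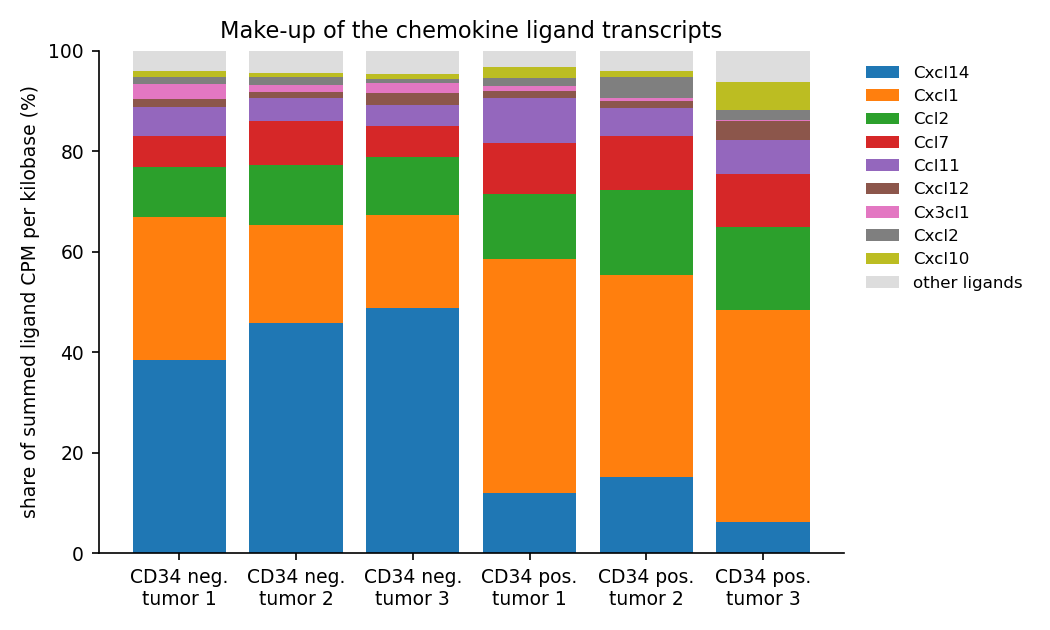
Share of the summed ligand CPM per kilobase (y axis, percent) held by 9 chemokines and by all other ligands, in each of the 6 libraries (x axis). Cxcl14 (blue) takes 38.5% to 48.9% in CD34- CAFs and 6.17% to 15.1% in CD34+ CAFs, while Cxcl1 (orange) takes 18.5% to 28.4% and 40.3% to 46.5%.

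The CXC ligands with the ELR motif, which attract neutrophils through CXCR2, went 1 way. All 4 tested members were lower in CD34- CAFs with the tumor block and none passed without it. In blocked edgeR, Cxcl3 and Cxcl5 did not pass (adjusted p = 0.196 and 0.0603). With the tumor as a random effect, Cxcl1 alone of the 4 passed. Cxcl5, Cxcl3, Cxcl15, Cxcl1 and Cxcl2 lie together on chromosome 5, from 90759298 to 90905938 (GRCm38.p6, as for all positions here), and Cxcl15, with 8 counts in all, was not tested. Their receptor genes Cxcr1 and Cxcr2 had no count in any library.

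Cxcl1 (gene 14825), the most abundant of the group, was at 575, 858 and 400.1 CPM in CD34- CAFs of tumors 1, 2 and 3, and at 1284, 2273 and 1468 CPM in CD34+ CAFs. All CD34+ libraries were above all CD34- libraries, and tumor 2 was highest in both populations. Its log2 fold change was -1.45 ± 0.33 (SE, adjusted p = 0.108) without and -1.48 ± 0.15 (adjusted p = 0.00103) with the block in limma-voom, a level 2.79-fold lower in CD34- CAFs.

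Cxcl2 (gene 20310), a close relative, was at 28.1, 73.2 and 19.5 CPM in CD34- and 54.8, 278 and 75.3 CPM in CD34+ CAFs. The CD34- library of tumor 2 exceeded the CD34+ library of tumor 1, but within each tumor the CD34- library was the lower. The log2 fold change was -1.60 ± 0.65 (adjusted p = 0.320) without and -1.66 ± 0.20 (adjusted p = 0.00186) with the block. With the tumor as a random effect the adjusted p was 0.0759.

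Cxcl5 (gene 20311), also a neutrophil attractant, reached 5.57, 31.0 and 1.46 CPM in CD34- against 11.2, 104 and 15.97 CPM in CD34+ CAFs. Again the tumors differed more than the populations, and each CD34- library was below its partner. With the block the log2 fold change was -1.78 ± 0.28 (adjusted p = 0.00573), and without it -2.44 ± 1.18 (adjusted p = 0.393).

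Cxcl3 (gene 330122) was rare, at 0.303, 2.39 and 1.18 CPM in CD34- and 2.66, 16.1 and 1.27 CPM in CD34+ CAFs. The libraries of tumor 3 were nearly equal. Its blocked log2 fold change of -2.47 ± 0.54 (adjusted p = 0.0231) did not pass without tumor 2 (-1.39, adjusted p = 0.816), and the unblocked value was -3.01 ± 1.37 (adjusted p = 0.366).

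**Figure D3:**
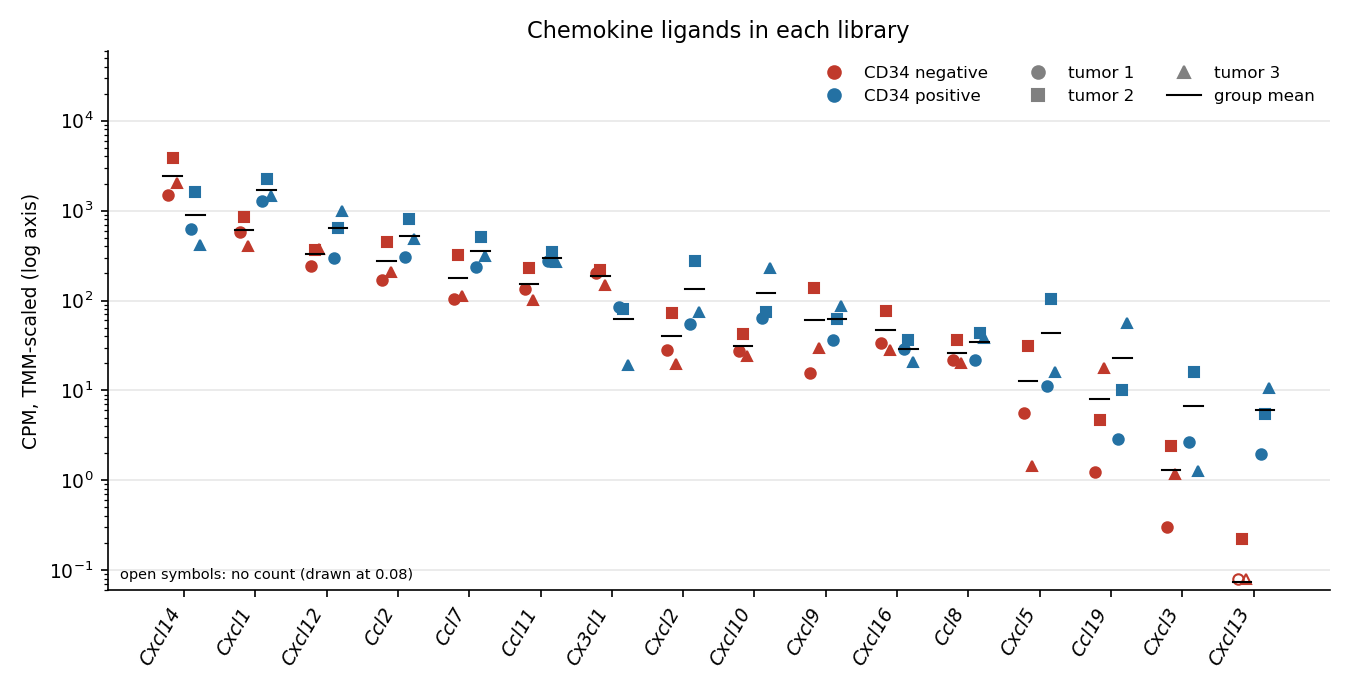
CPM (y axis, log scale) of the 16 named ligands (x axis, ordered by mean level) in CD34- (red) and CD34+ (blue) libraries, with tumors as circles, squares and triangles and group means as lines. Cxcl14 and Cx3cl1 are higher in CD34- CAFs of every tumor, whereas Cxcl1, Cxcl2, Ccl2, Ccl7 and Ccl11 are lower, and tumor 2 (squares) is often highest in both groups.

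Among CXC ligands induced by interferon, which attract T cells through CXCR3, 1 of 2 tested genes passed with the block and none without it. Cxcl10 (gene 15945, chromosome 5, 92346638 to 92348889) was at 27.7, 42.2 and 24.3 CPM in CD34- CAFs and 64.2, 74.9 and 228 CPM in CD34+ CAFs. The ranges did not overlap, and the CD34+ library of tumor 3 was far above the other two. Its log2 fold change was -1.79 ± 0.47 (adjusted p = 0.150) without and -1.80 ± 0.38 (adjusted p = 0.0202) with the block, where edgeR with the block gave an adjusted p of 0.0954. Without tumor 3 the blocked value was -1.01 (adjusted p = 0.00227), and without the CD34+ library of tumor 3 the unblocked value was -1.20 (adjusted p = 0.230). Cxcl10 overlaps Art3, which had 3402 counts against its 18252.

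Cxcl9 (gene 17329), its neighbour, was at 15.8, 138 and 29.9 CPM in CD34- and 36.8, 62.5 and 86.8 CPM in CD34+ CAFs. Here the CD34- library of tumor 2 was the highest of all, while CD34+ was higher in tumors 1 and 3. In limma-voom the log2 fold change was -0.61 ± 0.71 (adjusted p = 0.738), and -0.22 with a 95% interval of -1.22 to 0.79 in the blocked fit (adjusted p = 0.834). Without tumor 2 the blocked value was -1.43 and passed (adjusted p = 5.49e-05). Cxcl11, the remaining member, was too rare to test, as was the receptor Cxcr3 with 5 counts.

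Homeostatic CXC ligands went both ways. Cxcl14 (gene 57266, chromosome 13, 56288643 to 56296811), a chemokine made by many epithelia and fibroblasts, was at 1488, 3829 and 2025 CPM in CD34- CAFs and 632, 1631 and 410.0 CPM in CD34+ CAFs. The CD34- library was the higher in every tumor, although the CD34+ library of tumor 2 exceeded the CD34- library of tumor 1. Its fitted log2 fold change was 1.66 ± 0.52 (adjusted p = 0.206) without the block. It was 1.60 ± 0.21 with the block (adjusted p = 0.00252), which is 3.03-fold higher. The study names this gene from these libraries, so its direction is not independent evidence. Summed epithelial markers overlapped between the populations (54.0 to 174 CPM in CD34- and 13.8 to 147 CPM in CD34+ CAFs, with 0 of 8 markers passing in either fit). Their blocked log2 fold changes were all above 0, from 0.34 for Epcam to 1.27 for Krt5. Within tumors, only Krt14 and Krt17 in tumor 1 were lower in the CD34- library than in its partner. Krt8, for example, was at 61.6, 39.3 and 8.94 CPM in CD34- and 43.4, 26.5 and 2.96 CPM in CD34+ CAFs. The part of these markers in the result was not tested.

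Cxcl12 (gene 20315, chromosome 6, 117168535 to 117181368), the ligand of CXCR4 and ACKR3 that retains progenitors in bone marrow, was at 245, 361 and 379 CPM in CD34- and 294, 639 and 982 CPM in CD34+ CAFs. The ranges overlapped, and the gap within a tumor was smallest in tumor 1. The blocked log2 fold change was -0.82 ± 0.19 (adjusted p = 0.0292), the unblocked one -0.77 ± 0.42 (adjusted p = 0.442), and edgeR with the block gave an adjusted p of 0.105.

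Cxcl13 (gene 55985, chromosome 5, 95956939 to 95961068), which draws B cells to follicles, had no count in the CD34- libraries of tumors 1 and 3, which allows up to 0.0534 and 0.0825 CPM, and 0.221 CPM in that of tumor 2. It was at 1.98, 5.45 and 10.5 CPM in CD34+ CAFs, all above the CD34- libraries. The limits for counts of 0 reflect depth only, and the CD34- library of tumor 3 had counts in fewer genes than any other. The log2 fold change, which depends on the small value added to counts of 0, was -7.51 ± 1.91 (adjusted p = 0.144) without and -7.07 ± 1.495 (adjusted p = 0.0201) with the block. The blocked value did not pass without tumor 1 or tumor 2 (adjusted p = 0.148 and 0.0740), where it was -8.75 without tumor 2, and it was -5.58 (adjusted p = 0.00534) without tumor 3.

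Of the 2 ligands that are made as membrane proteins and then shed, Cx3cl1 was higher in CD34- CAFs with the block and Cxcl16 passed in neither fit. Cx3cl1 (gene 20312, chromosome 8, 94772180 to 94782427), which binds CX3CR1 on monocytes and lymphocytes, was at 202, 219 and 148 CPM in CD34- and 85.4, 80.0 and 19.4 CPM in CD34+ CAFs. All CD34- libraries were above all CD34+ libraries. The log2 fold change was 1.89 ± 0.51 (adjusted p = 0.154) without and 1.77 ± 0.26 (adjusted p = 0.00471) with the block, which is 3.41-fold higher. Cx3cl1 and a lncRNA gene, Gm51543, overlap, and the latter is not analysed here. Pericyte markers moved with it (4 of 5 passed with the block, 3 higher and 1 lower, with sums of 184 to 228 CPM in CD34- and 46.4 to 100.4 CPM in CD34+ CAFs), and their part in the result was not tested.

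Cxcl16 (gene 66102, chromosome 11, 70454389 to 70459984), the ligand of CXCR6, was at 33.5, 77.4 and 28.5 CPM in CD34- and 28.8, 36.4 and 20.7 CPM in CD34+ CAFs. The ranges overlapped at the low end, and the CD34- library was the higher in every tumor. Its log2 fold change was 0.54 ± 0.40 (adjusted p = 0.586), and 0.74 ± 0.20 with the block, just outside the threshold (adjusted p = 0.0525). Without tumor 2 the blocked value was 0.33 (adjusted p = 0.768). It passed without tumor 1 or tumor 3 (adjusted p = 0.0114 and 0.0263). Cxcl16 overlaps Zmynd15, which had 897 counts against its 10580.

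The CC ligands that attract monocytes and eosinophils included 3 of the most abundant chemokines. Of 5 tested, 3 (Ccl2, Ccl7 and Ccl11) were lower in CD34- CAFs with the block and none without it. Ccl2, Ccl7, Ccl11, Ccl12, Ccl8 and Ccl1 lie together on chromosome 11, from 82035577 to 82179812.

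Ccl2 (gene 20296), the main attractant of CCR2+ monocytes, was at 168, 444 and 209 CPM in CD34- and 303, 800.4 and 481 CPM in CD34+ CAFs. Tumor 2 was highest in both populations, so the ranges overlapped, but each CD34- library was below its partner. This gave a log2 fold change of -0.90 ± 0.43 (adjusted p = 0.387) without and -0.97 ± 0.13 (adjusted p = 0.00302) with the block, 1.96-fold lower. With the tumor as a random effect the adjusted p was 0.107.

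Ccl7 (gene 20306), another ligand of CCR2, was at 104, 319 and 113 CPM in CD34- and 236, 512.5 and 309 CPM in CD34+ CAFs. The order of tumors was that of Ccl2. With the block the log2 fold change was -1.10 ± 0.16 (adjusted p = 0.00397), and without it -1.05 ± 0.45 (adjusted p = 0.340). The adjusted p was 0.0869 with the tumor as a random effect.

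Ccl11 (gene 20292), or eotaxin, which attracts eosinophils through CCR3, was at 133, 228 and 100.2 CPM in CD34- and 274, 350.5 and 266 CPM in CD34+ CAFs. All CD34+ libraries were above all CD34- libraries. Fitted over all libraries, the log2 fold change was -1.01 ± 0.30 (adjusted p = 0.184) without and -1.02 ± 0.16 (adjusted p = 0.00570) with the block.

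Ccl8 (gene 20307), from the same cluster, was at 21.6, 36.0 and 20.2 CPM in CD34- and 22.0, 43.6 and 38.3 CPM in CD34+ CAFs. The libraries of tumor 1 were nearly equal. Its log2 fold change was -0.52 ± 0.31 (adjusted p = 0.488), and -0.41 with a 95% interval of -0.86 to 0.03 in the blocked fit (adjusted p = 0.249). Ccl12 did not exceed 0.552 CPM in any library.

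The inflammatory CC ligands typical of myeloid and T cells were near 0. None of the 3 tested genes (Ccl5, Ccl6 and Ccl9) passed in either fit, and Ccl9 was at 0 to 2.63 CPM in CD34- and 1.49 to 6.17 CPM in CD34+ CAFs. Ccl3 and Ccl4 had 11 and 35 counts in all.

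Of the 9 tested homeostatic CC ligands, Ccl19 passed with the block. Ccl19 (gene 24047, chromosome 4, 42754525 to 42756365), which guides CCR7+ dendritic cells and T cells, was at 1.25, 4.65 and 18.0 CPM in CD34- and 2.91, 10.2 and 56.0 CPM in CD34+ CAFs. The tumors differed far more than the populations did, and within each tumor the CD34- library was the lower. The log2 fold change was -1.72 ± 1.09 (adjusted p = 0.511) without and -1.48 ± 0.25 (adjusted p = 0.00782) with the block. With the tumor as a random effect the adjusted p was 0.236.

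Ccl17 (gene 20295), a ligand of CCR4 that was singled out after its values were seen, was at 4.98, 8.19 and 3.36 CPM in CD34- and 0.742, 3.05 and 0 CPM in CD34+ CAFs. Its ranges did not overlap. Its fitted log2 fold change was 3.03 ± 1.48 (adjusted p = 0.395) without and 1.84 ± 0.69 (adjusted p = 0.145) with the block. Ccl17 lies next to Cx3cl1 on chromosome 8. The near-identical copies Ccl21a, Ccl21b and Ccl21d, and likewise Ccl27a and Ccl27b, can share reads, so their values are uncertain. None of them exceeded 4.92 CPM.

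Among receptors Ackr3 stood out in level. It had 30.3 ± 8.4 CPM per kilobase in CD34- and 174 ± 72 in CD34+ CAFs (SD, n = 3), above every other receptor. Next were Cxcr4 at 2.91 ± 2.09 CPM per kilobase in CD34- and Ackr1 at 16.2 ± 17.1 in CD34+ CAFs. All 4 atypical receptors had a fold change below 0 in every tumor, with a median log2 fold change of -4.06 (range -5.86 to -2.47). Of them, 1 passed without and 3 with the block. Ackr2 and Ackr4 had no count in the CD34- library of tumor 3, so their size there depends on the small value added to counts of 0. That library also had counts in fewer genes than any other. The log2 ratios of Ackr2 and Ackr4 were -10.5 and -7.50 in tumor 3, against -3.50 and -0.97 in tumor 1.

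Ackr3 (gene 12778, chromosome 1, 90203980 to 90215724), which takes up CXCL12, was at 95.5, 85.2 and 53.9 CPM in CD34- and 302, 384 and 658 CPM in CD34+ CAFs. The lowest CD34+ library was well above the highest CD34- library. Its log2 fold change was -2.47 ± 0.33 (adjusted p = 0.0434) without and -2.47 ± 0.30 (adjusted p = 0.00183) with the block, 5.54-fold lower in CD34- CAFs. Without the block the gene passed only when the CD34+ library of tumor 1 (adjusted p = 0.0307) or both libraries of tumor 1 (adjusted p = 0.0101) were left out, and it did not pass without negative library 1 (0.0543), negative library 2 (0.0750), negative library 3 (0.123), positive library 2 (0.102), positive library 3 (0.0960), tumor 2 (0.205) or tumor 3 (0.208). With the block it passed without each tumor.

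Ackr1 (gene 13349, chromosome 1, 173331886 to 173333503), a receptor of many inflammatory chemokines known from venules and red cells, was at 0.587, 0.421 and 0.0550 CPM in CD34- and 5.14, 9.65 and 41.4 CPM in CD34+ CAFs. All CD34+ libraries were higher, most of all that of tumor 3. As a log2 fold change, the difference was -5.48 ± 2.06 (adjusted p = 0.290) without and -5.28 ± 1.18 (adjusted p = 0.0248) with the block, and the latter did not pass without tumor 1 or tumor 2 (-6.54 and -5.69, adjusted p = 0.0566 and 0.0502). Without tumor 3 it was -3.87 (adjusted p = 0.00137). Ackr1 overlaps Cadm3, which had 13349 counts against its 2135. Cadm3, a cell adhesion gene, was itself at 3.36 to 8.14 CPM in CD34- and 60.8 to 180.4 CPM in CD34+ CAFs. The overlap was read from whole gene spans, and strand use in the counting was not stated. How far reads of 1 gene were counted for the other was not determined.

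Summed endothelial markers were also higher in CD34+ CAFs, at 56.7 to 122.8 CPM against 11.4 to 34.8 CPM in CD34- CAFs. Most of that came from Tek, at 48.8 to 116 against 5.44 to 13.4 CPM, the only marker of 6 tested that passed with the block. The markers Pecam1 (1.73 to 12.9 against 0.550 to 5.94 CPM), Cdh5 (0 to 1.61 against 0.220 to 4.18 CPM) and Vwf (0.247 to 1.498 against 0.935 to 4.29 CPM) overlapped between the populations. Kdr overlapped too (3.84 to 12.6 against 1.84 to 4.48 CPM, blocked log2 fold change -1.01, adjusted p = 0.161). Within tumors, Kdr was higher in every CD34+ library than in its partner, whereas Cdh5 and Vwf were lower in every one. Emcn and Cldn5 did not exceed 1.64 CPM. The part of the endothelial markers in the values of Ackr1 and the other receptors was not tested.

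Ackr2 (gene 59289, chromosome 9, 121898355 to 121911075), which degrades inflammatory CC chemokines such as CCL2, was at 0.623 and 0.686 CPM in CD34- CAFs of tumors 1 and 2 and had no count in tumor 3. In CD34+ CAFs it was at 7.11, 11.99 and 19.8 CPM, without overlap. The log2 fold change was -5.86 ± 1.53 (adjusted p = 0.148) without and -4.78 ± 1.17 (adjusted p = 0.0359) with the block. The blocked call was lost without tumor 1 or tumor 2 (-5.92 and -5.32, adjusted p = 0.119 and 0.169), and without tumor 3 the value was -3.86 (adjusted p = 0.000507).

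Ackr4 (gene 252837), which takes up CCL19, CCL21 and CCL25, was at 4.08, 0.244 and 0 CPM in CD34- and 7.98, 1.39 and 2.47 CPM in CD34+ CAFs. Tumor 1 was highest in both populations and the ranges overlapped. Fitted over all libraries, the log2 fold change was -2.65 ± 1.71 (adjusted p = 0.521), and -1.52 with a 95% interval of -3.31 to 0.26 in the blocked fit (adjusted p = 0.297). Ackr4 overlaps Acad11, which had 3150 counts against its 558.

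**Figure D4:**
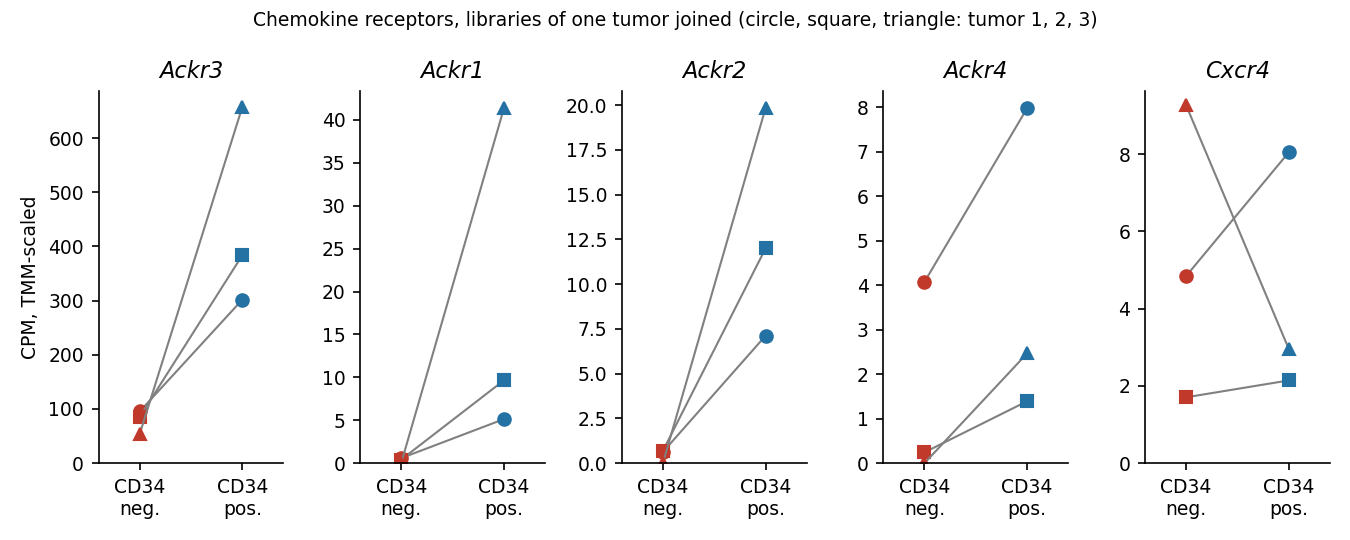
CPM (y axes, linear, each with its own scale) of the 4 atypical receptors and Cxcr4 in CD34- (red) and CD34+ (blue) CAFs, with lines joining the libraries of 1 tumor. Ackr3, Ackr1 and Ackr2 are higher in the CD34+ library of each tumor without overlap of the groups, whereas the lines of Cxcr4 cross.

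Receptors that signal were rare. None of the 3 tested CC receptors and none of the 4 tested CXC and CX3C receptors passed in either fit. Cxcr4 (gene 12767), the signalling receptor of CXCL12, was at 4.84, 1.70 and 9.27 CPM in CD34- and 8.04, 2.14 and 2.96 CPM in CD34+ CAFs. CD34- was the lower in tumors 1 and 2 and the higher in tumor 3. In limma-voom the log2 fold change was 0.57 ± 0.67 (adjusted p = 0.736), and 0.29 with a 95% interval of -0.89 to 1.47 in the blocked fit (adjusted p = 0.808). Cxcr1, Cxcr2, Ccr6, Ccr1l1, Ccl1, Ccl22 and Ccl26 had no count in any library, which allows up to 0.0351 CPM in the deepest library and 0.186 CPM in the shallowest.

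Genes of the chemokine pathway outside these families were read from lists. Of 74 tested genes in 5 lists, 1 passed without the block, where 0.121% of all genes did, and 13 with it, where 8.57% did. Dpp4, the protease that trims and inactivates CXCL12 and other chemokines, passed in both fits. It was at 26.3, 37.8 and 34.8 CPM in CD34- and 218, 262 and 396 CPM in CD34+ CAFs, with a log2 fold change of -3.13 ± 0.26 (adjusted p = 0.0115) without the block. Of the other 12 tested genes for extracellular processing and presentation, Gpc1, Sdc1, Hs2st1 and Extl3 were higher in CD34- CAFs with the block. Their blocked log2 fold changes were 1.20, 0.80, 0.73 and 0.64 (adjusted p = 0.00540, 0.00720, 0.0231 and 0.0206). Gpc1 and Sdc1 encode core proteins that carry heparan sulfate, and Hs2st1 and Extl3 act in its synthesis. The other listed genes of that kind did not pass, with blocked log2 fold changes of -0.70 for Sdc4 (adjusted p = 0.0544), 0.23 for Ndst1 and 0.11 for Ext1. The calls of Hs2st1 and Extl3 were lost in blocked edgeR, and those of Gpc1, Sdc1 and Hs2st1 with the tumor as a random effect.

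The chemerin system, a chemoattractant outside the chemokine families, was split. Its ligand gene Rarres2 was lower in CD34- CAFs (blocked log2 fold change -1.24, adjusted p = 0.00309), as was the receptor Gpr1 (-3.77, adjusted p = 0.0420), while the signalling receptor Cmklr1 was higher (1.45, adjusted p = 0.00518). The call of Gpr1 was lost in blocked edgeR and in blocked limma-voom without tumor 1 or tumor 2. That of Rarres2 was lost with the tumor as a random effect. Rarres2, Gpr1 and Cmklr1 were the 3 genes of 7 under other names that passed. Among 21 genes of receptor signalling, Gng2, Rgs3 and Rgs16 were higher (1.28, 1.03 and 1.21, adjusted p = 0.0314, 0.0127 and 0.0148). Of 17 genes of NF-kB and its feedback, Nfkbie was higher (0.88, adjusted p = 0.0146) and Il1r1 lower (-0.67, adjusted p = 0.0183), a count near the 8.57% of all genes. Of these signalling and NF-kB genes, Gng2, Rgs3, Rgs16 and Il1r1 lost their calls in blocked edgeR. With the tumor as a random effect, Gng2, Rgs16 and Il1r1 lost theirs. In blocked limma-voom without tumor 2, Nfkbie, Il1r1 and Gng2 did not pass, and Gng2 did not pass without tumor 1 either. None of 16 interferon response genes passed in either fit, with a median log2 fold change of -0.23. Ifit1 had a blocked log2 fold change of -0.91 (adjusted p = 0.0765) and passed in blocked DESeq2. Ifit1 and Irf9 passed in blocked limma-voom without tumor 2. Rarres2, Rgs3, Sdc1, Hs2st1 and Extl3 were named after their values were seen.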

How the data were processed

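RNA from sorted CAFs was made into libraries with a TruSeq RNA kit and sequenced. The authors aligned reads to GRCm38/mm10 and deposited raw counts per gene (featureCounts of Rsubread), without normalization and without pooling. Whether strand was used was not stated. Groups and tumors were taken from the sample titles.

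Genes were filtered with filterByExpr (minimum count 10) and scaled by TMM. The groups were compared with limma-voom, the tool the study's methods name, over 14855 genes with a term for the group alone. The threshold was a two-sided Benjamini-Hochberg adjusted p of 0.05. Whether the study's own fit had a tumor term was not stated. Over all genes, the group-only fit here called 3 higher in CD34- CAFs, and the blocked fit called 642. The study reported many more than 3 such genes, so its calls are not those of the group-only fit. Both populations of a tumor share that tumor, and deviations from the group means correlated within tumors (0.373, 0.350 and 0.219), so each result is also given from a fit that has tumor as a blocking factor. R 4.3.3, limma 3.58.1, edgeR 4.0.16 and DESeq2 1.42.0 were used, and scripts were tested on simulated data. Limits for a count of 0 allow 3 counts and cover counting error only.

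Genes and lists were chosen with earlier results of these data known. Named with values are all chemokine genes called in either fit, the 12 ligands and 5 receptors with the highest mean CPM and 15 fixed genes. Pathway genes are those called without the block and the 2 per list with the largest change with it. Alternatives covered the block, the test, the normalization, the low-count filter, sample weights, the annotation, gene length and left-out libraries. Blocked fits with library totals or DESeq2 size factors were added after seeing the data.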

Additional observations from a re-analysis of the deposited data

How the results depend on the processing

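The number of chemokine genes passing was 1 in limma-voom without a block, 16 with the tumor as a replicate block and 6 with the tumor as a random effect. Over all 14855 tested genes, these fits called 18, 1273 and 703. edgeR gave 0 without (11 at an unadjusted p under 0.05, against 1855 over all genes) and 10 with the block. Over all genes it called 9 and 575. DESeq2 gave 7 and 18, against 674 and 1730 over all genes. With the block in limma-voom the number was 14, 13 and 19 without tumor 1, 2 or 3, against 1134, 851 and 2019 over all genes. It was 16 with library totals or with DESeq2 size factors, against 1170 and 1255. Leaving out a library or a tumor without the block gave 0 to 1, against 0 to 86. Sample weights gave 1, against 161. Of the 16 blocked calls, 9 passed with the block in limma-voom, edgeR and DESeq2 and without each tumor (Ackr3, Ccl2, Ccl7, Ccl11, Ccl19, Cx3cl1, Cxcl1, Cxcl2 and Cxcl14), but 4 of these 9 did not with the tumor as a random effect (Ccl2, Ccl7, Ccl19 and Cxcl2, adjusted p from 0.0759 to 0.236). In edgeR with the block, 6 were lost (Ackr1, Ackr2, Cxcl3, Cxcl5, Cxcl10 and Cxcl12, adjusted p from 0.0528 to 0.196). Pathway genes passing numbered 1, against 13 with the block (15 with library totals, 14 with DESeq2 size factors), 6 with a random effect, 6 in edgeR with the block, 6 and 18 in DESeq2 without and with it, 3 with sample weights, 13, 11 and 19 with the block without tumor 1, 2 or 3, and 0 to 2 when a library or tumor was left out. The direction turned for Cxcl9 (-1.54 to 0.0902 over left-out libraries, 0.15, -1.43 and 0.40 with the block without tumor 1, 2 or 3, passing without tumor 2) and for Cxcr4 (-0.0782 to 1.19 over left-out libraries, -0.0624 with sample weights, -0.58 with the block without tumor 3). The cause was not tested. The median fold change stayed below 0 in every setting, from -1.24 to -0.49. In the shallowest library 3 counts are 0.186 CPM, so rare receptors could not be compared. Without division by gene length, Cxcl14 held 54.4% of ligand counts in CD34- and 17.2% in CD34+ CAFs on average, and Cxcl1 14.3% and 34.6%.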
